A study of Mus musculus with 33 samples.

Results

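The persistent knockout regions are the places in the genome where both antibodies used for HSF1 gave a ChIP-seq peak in cells without HSF1 at all 3 times sampled, which were before heat shock and 12 and 60 min into it. ChIP-seq sequences the DNA that an antibody pulls down, and a peak is a place with more sequenced fragments (tags) than its surroundings. Peaks of the antibodies labelled CS and MM that overlapped by at least 1 bp were joined into a shared region, and a shared region before heat shock was a member when it overlapped a shared region at 12 min and one at 60 min. Of the 970 knockout shared regions before heat shock, 639 were members (65.9% of the 970, which is also the rate over all regions examined, since the rule defines it). The series as a whole gave 7812 shared regions over 2 genotypes and 3 times.

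The cells were mouse embryonic fibroblasts (MEFs) of the 129Sv.BALB/c strain background, either wild type or HSF1-/-, kept unheated or heated for 12 or 60 min. CS is an antibody sold by Cell Signaling, and MM was a gift of the Morimoto laboratory. Each knockout list came from 1 library, so there was no replicate error and no test between times. Wild type cells were also mapped for SRF, another transcription factor, and there were 6 knockout lists, 6 wild type CS and MM lists and 3 SRF lists.

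HSF1 switches on the genes of the heat shock response. On heat shock it assembles into trimers that bind heat shock elements, which are arrays of the letters GAA and TTC set in alternating orientation, near the genes of chaperones. Cells without HSF1 have no such target, so a peak in them shows where tags gather without it. Satellite DNA, the tandem repeat of mouse centromeres, the ribosomal RNA genes and copies of mitochondrial DNA in the nucleus are known in ChIP-seq as places where tags gather in many libraries, whatever was pulled down. The label of these regions names an antibody as their source. The lists cannot show that: both antibodies found the same places by construction, and the knockout lists were called with no control library, per the file headers. The regions are therefore called by their rule.

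The sequence under most members was not read, since gene start windows of the RefSeq tables (GRCm38.p6) were the only genomic sequence used. Of 32619 such windows on chromosomes 1 to 19 and X, 7 overlapped a member, and 5 members had one. A pair of these windows is shown because each lies over a member at the start of a long noncoding RNA gene, and a microRNA because its member covers it whole. Each is written from its 5′ end on the strand of its gene. In the windows the capitals mark the bases inside the member, and in the microRNA they mark the seed.
Gm13822: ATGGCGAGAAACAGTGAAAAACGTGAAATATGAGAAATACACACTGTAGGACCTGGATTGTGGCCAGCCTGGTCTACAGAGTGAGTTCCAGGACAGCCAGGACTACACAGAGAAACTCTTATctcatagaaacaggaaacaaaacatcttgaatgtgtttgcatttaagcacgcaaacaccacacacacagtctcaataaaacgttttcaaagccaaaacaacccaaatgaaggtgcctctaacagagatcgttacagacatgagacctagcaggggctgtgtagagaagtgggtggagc
Gm41331: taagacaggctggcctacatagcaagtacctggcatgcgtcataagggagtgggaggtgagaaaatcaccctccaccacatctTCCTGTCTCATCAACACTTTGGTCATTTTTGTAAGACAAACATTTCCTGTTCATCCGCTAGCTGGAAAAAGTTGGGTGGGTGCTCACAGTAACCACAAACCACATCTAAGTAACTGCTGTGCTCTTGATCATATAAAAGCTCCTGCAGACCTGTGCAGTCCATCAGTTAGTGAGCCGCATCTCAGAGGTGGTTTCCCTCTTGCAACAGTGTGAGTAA
miR-6236: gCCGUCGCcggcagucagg

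The Gm13822 window, at chr5:114922212-114922511 on the minus strand, holds 122 bases of the member at chr5:114922390-114922625, which is also at an end of Oasl1, an interferon-induced gene. It has the word ATGGCGA, the word GAGAAAT and the word GTAGGAC, which are known from the mouse major satellite. These words were chosen after the sequence had been seen. Searched on both strands, all 3 were found together in 4 of the 32619 windows (0.0123%), and the windows of Olfr1506, Olfr1565 and Trim23, which make up the others, overlapped no member. The Gm41331 window, at chr15:60141661-60141960 on the plus strand, has 217 bases of the member at chr15:60141744-60141991 and none of the words. Neither GAANNTTC nor TTCNNGAA, a pair of short heat shock elements, was in any of the 7 windows, whereas 7.91% and 8.57% of all windows held them and 15.1% held either. A match or its lack describes these letters in these windows and no binding.

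The microRNA miR-6236 lies at chr9:110281353-110281371 on the plus strand, inside the member at chr9:110281257-110281374. Its mature sequence is 78.9% G and C. That member had 58 tags with CS and 66 with MM before heat shock, 37 and 32 at 12 min, and 36 and 37 at 60 min. In tags the counts were highest before heat shock. Per M tags of the library (M for mega) the antibodies went opposite ways at 12 min. The CS list at 12 min was the highest, with 7.14 against 5.83 (CS) and 5.44 (MM) before heat shock. The MM list at 12 min was the lowest, with 2.05. Both lists at 60 min were below both lists before heat shock.

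Heights spanned 3 orders of magnitude. The number of tags in the largest peak of a member had a median of 18 in the CS list before heat shock (lowest 5, highest 6058) and 22 in the MM list (6 to 6569). At 12 min the medians were 10 for CS (4 to 2453) and 22 for MM (6 to 5491). At 60 min they were 18 for CS (5 to 5024) and 15 for MM (5 to 4737). The shallowest library, CS at 12 min, thus had the lowest median, and the libraries held, in the same order, 9.95, 12.1, 5.18, 15.6, 8.97 and 7.39 M tags. Per M tags of the library the medians were 1.81, 1.81, 1.93, 1.41, 2.01 and 2.03, so the spread of the medians was narrower per M tags than in tags, and MM at 12 min, the deepest library, was lowest. Whether depth sets any of these differences was not tested.

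**Figure D1:**
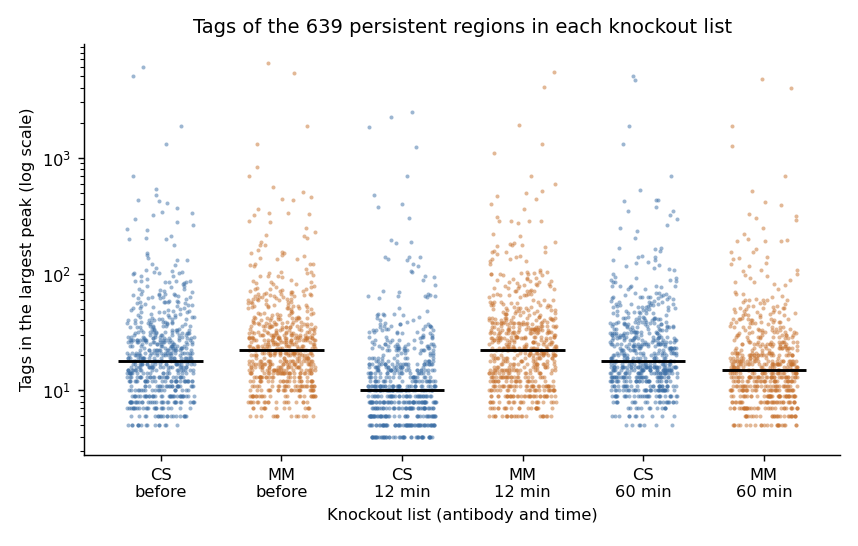
Tags in the largest peak of each of the 639 members (points, log scale) in each knockout list, with the median as a bar. The medians lie between 10 and 22, and 4 members stand above 1000 in every list.

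The members took a large share of the tags in peaks and a small share of the library. They held between 38.4% (CS at 12 min) and 57.6% (MM before heat shock) of the tags in all peaks of a list, while being 8.18% to 20.2% of its peaks. Of all tags in the library they held 0.243% to 0.394%. The 10 best-ranked members alone held 44.0% to 50.6% of the members' tags. The rest were modest: 198 members stayed under 20 tags in every list, and 21 were over 100 tags in every list.

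Member order was similar in every list. Ranked by tags, the members' order in any pair of the 6 lists had a Spearman correlation of 0.715 (CS and MM at 12 min) to 0.909 (CS and MM before heat shock) over 639 regions. This is a description: the lists share the genome and its repeats, and the rule took regions seen in all of them. Per M tags, the highest list of a member was a median of 2.35 times its lowest. The steadiest member, at chr15:85542116-85542288 inside Wnt7b, a secreted signalling protein, had 17, 23, 10, 28, 17 and 13 tags and a ratio of 1.13. The least steady, at chr11:33754813-33755048 inside Kcnip1, a potassium channel partner, had 19, 30, 8, 6, 15 and 24 tags and a ratio of 8.43. Its lowest value, 6 tags, was in the deepest library, MM at 12 min, where no peak had fewer. The part of depth was not tested.

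The persistent regions were chosen by being found at each time, and taller regions before heat shock were found again more often. With a mean of CS and MM tags under 10 before heat shock, 92 of 295 regions (31.2%) were members. Between 10 and 20 it was 219 of 318 (68.9%), and between 20 and 50 it was 222 of 248 (89.5%). From 50 to 100 it was 66 of 68 (97.1%), and at 100 or more 40 of 41 (97.6%). Height and membership come from the same peak calls, so these shares describe the rule. Of the 331 shared regions that were not members, 54 were found at 12 min only, 132 at 60 min only and 145 at neither time.

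Many of the 331 were still near the rule. Among the 277 with no shared region at 12 min, 201 (72.6%) had a CS or MM peak there, and 141 of the 199 (70.9%) that lacked one at 60 min did so. A peak of at least 1 antibody lay at both later times in 226 of the 331 (68.3%). The smallest overlap that made a member was 4 bp, for the region at chr6:29748071-29748233 in Smo, the signal transducer of the Hedgehog pathway. It had 11 tags with CS and 21 with MM before heat shock. The next smallest overlaps were 40 bp each, at chr6:72330288-72330351 (12 and 15 tags) and chrY:4161284-4161331 (6 and 7 tags). Just outside the rule, the regions at chr2:22589448-22589559 (13 and 11 tags), chr13:3372898-3373006 (11 and 11) and chr13:54189993-54190056 (10 and 10) missed a later shared region by 29, 31 and 32 bp.

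The tallest place of 3 lists was no member. A peak at the first assembled bases of chromosome 9 was first by tags in the MM list before heat shock (7914 tags, chr9:3000001-3006177), the CS list at 12 min (6990 tags, chr9:3000001-3006981) and the MM list at 60 min (9654 tags, chr9:2999999-3009170). The other 3 knockout lists held no peak in that window, so it formed no shared region.

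Among the members, the tallest region before heat shock covered Rn18s-rs5, an annotated 18S ribosomal RNA pseudogene, at chr17:39842995-39848831. It had 6058 tags with CS and 6569 with MM before heat shock, 2239 and 4043 at 12 min, and 4670 and 3978 at 60 min. In tags its counts were lower after heat shock with both antibodies, but the libraries differed in depth. The CS libraries held 9.95, 5.18 and 8.97 M tags in order of time, and the MM libraries 12.1, 15.6 and 7.39 M. With CS at 12 min the peak was 4396 bp wide, against 5834 to 5839 bp in the other lists. The part of depth and width was not tested. The region was also the widest member, at 5837 bp.

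The best mean rank belonged to chr14:19415696-19419707, a 4012 bp region outside genes. It had 5030 and 5317 tags before heat shock, 2453 and 5491 at 12 min, and 5024 and 4737 at 60 min. Only the CS list at 12 min was low. Its largest peak there was 2258 bp wide, against 4004 to 4012 bp in the other lists, and that library is also the shallowest. The part of width and depth was not tested.

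On chromosome 2, 4 members lay side by side outside genes, over 5177 bp. The first in position, chr2:98662161-98662999, had 1303 and 1314 tags before heat shock, 1227 and 1324 at 12 min, and 1302 and 1267 at 60 min. The region chr2:98663630-98664098 had 543 and 565, then 474 and 590, then 531 and 522. At chr2:98664872-98665270 the counts were 436 and 457, 374 and 473, and 426 and 390. The last, chr2:98666233-98667337, had 1868 and 1887, 1848 and 1899, and 1868 and 1860. At 12 min the depth of MM was 3.01 times that of CS, and the counts of all 4 differed by far less.

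Such flat counts recurred at chr9:35305207-35305602, inside the long noncoding RNA gene Gm33838. It had 695 and 697 tags before heat shock, 691 and 698 at 12 min, and 697 and 696 at 60 min. The region chr12:3109863-3110131, outside genes near the start of the assembled chromosome, had 428 and 432, 398 and 441, and 430 and 418. At chr6:103649046-103649298, inside Chl1, a neural cell adhesion molecule, the counts were 324 and 335, 305 and 360, and 320 and 306. All 3 stayed nearly level across the libraries.

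Other well-ranked members did vary. The region chr15:75086232-75087048, outside genes, had 368 and 439 tags before heat shock, 184 and 495 at 12 min, and 380 and 331 at 60 min. At chr12:74803857-74804510 the counts were 344 and 288, 197 and 310, and 350 and 249. The region chr1:24611535-24616186 contains the pseudogenes Gm10925 and Gm10222 and is known as a nuclear copy of mitochondrial DNA. It had 300 and 825 tags before heat shock, 117 and 1098 at 12 min, and 431 and 317 at 60 min, so that MM exceeded CS at the first 2 times and not at 60 min. In this region the deepest libraries, MM before heat shock and at 12 min, gave the highest counts, and the part of depth was not tested.

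Some of the flattest members were also the most densely filled. The headers keep at most 1 tag at a position, so a peak can hold at most 1 tag per base on each of 2 strands, taken here as the limit. In the CS list before heat shock, a member's largest peak filled a median of 8.33% of that limit. In 11 members it filled 50% or more, up to 87.8% at Gm33838, and that member reached 90.5% with MM before heat shock. Of those 11 members, 9 were at 50% or more in all 6 lists. The exceptions were the Rn18s-rs5 region, which ranged from 25.5% to 56.3%, and chr2:98664872-98665270, at 48.6% in the CS list at 12 min. Counts were also flat in less filled members. The member chr5:114173096-114173224 inside Acacb, an acetyl-CoA carboxylase, picked for its flat counts, had 43, 44, 42, 42, 47 and 44 tags at 17.9% to 35.6% filled. The chr14 region, filled 54.3% to 68.5% in the 6 lists, ran from 2453 to 5491 tags. Its lowest count came from a CS peak of 2258 bp at 12 min, against 4004 to 4012 bp in the other lists. No peak of the 6 wild type lists filled more than 30.2%. Those lists were called against IgG, and the knockout lists without a control. Wild type peaks were also wider, with list medians of 195 to 924 bp against 84 to 107 bp in the knockout. The wild type value therefore does not show that such dense places were absent from those libraries.

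**Figure D2:**
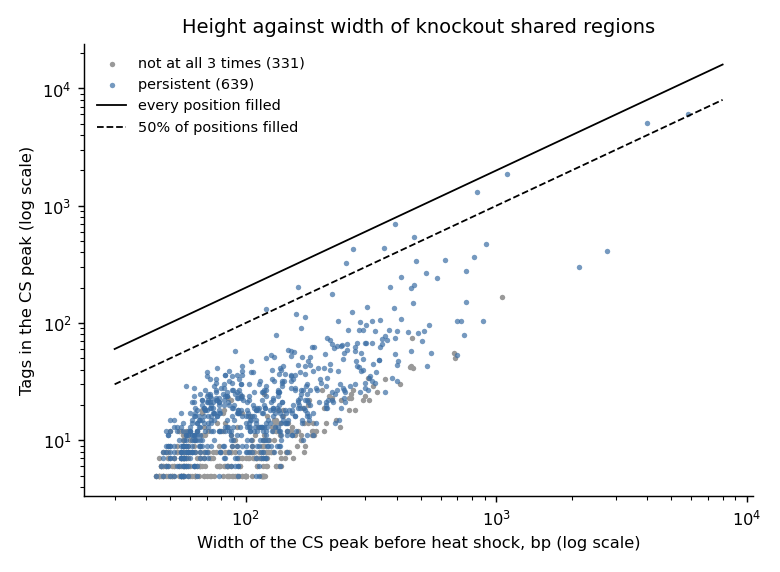
Tags against width of the CS peak before heat shock (both log scales) for the 639 members and the 331 other shared regions, with lines at the most tags a peak can hold and at 50% of it. The 11 points on or over the dashed line are all members, and most regions lie far below it. Height and membership come from the same peak calls.

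At 12 min, where MM had 3.01 times the depth of CS, the ratio of MM to CS tags had a lower median in the most filled regions. It was 1.18 in the 11 members filled to 50% or more and 2.00 over all members. In the Gm33838 region it was 698 to 691 tags, and at chr2:98666233-98667337 1899 to 1848. A low ratio also occurred far from the ceiling at Acacb, picked for its flat counts, with 42 tags in both lists. Among the 11 the ratio reached 2.24, at the chr14 region, where the CS peak was 2258 bp wide and the MM peak 4009 bp. Members under 10 tags before heat shock had a median of 1.5. The lowest peaks of the 12 min lists had 4 tags with CS and 6 with MM. Near this floor the ratio cannot be set against the ceiling.

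**Figure D3:**
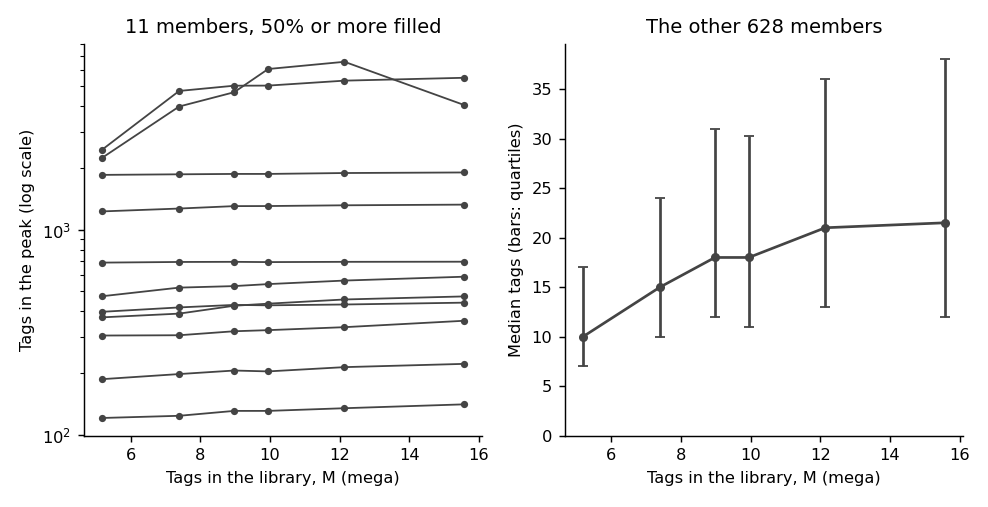
Tags in the peak against the depth of the library in M tags, as lines for the 11 members filled to 50% or more (left, log scale) and as the median and quartiles of the other 628 (right). The lines on the left are nearly flat apart from the tallest pair, while the median on the right goes from 10 in the shallowest library to 21.5 in the deepest.

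Members were narrow. The median width was 125 bp (lowest 47, highest 5837), against 112 bp for the shared regions that were not members. In all, 480 of the 639 were under 200 bp and 8 were over 1 kb. Wild type shared regions, which were called against IgG, were wider, with medians of 448, 823.5 and 997 bp in order of time. The fragment length that the peak caller estimated was 33 to 40 bp in the knockout libraries, close to the tag length of 36 bp. Unheated wild type cells had estimates of 45 bp with CS and 40 with MM, and heated ones 107 to 161 bp. The unheated wild type lists thus had wider shared regions than the knockout at a fragment length only slightly longer, and the part of the estimate in the widths was not tested.

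The 5 widest members were those at Rn18s-rs5, Gm10925 and chr14, then chr11:3191606-3194370 and chr17:3081519-3082876. The region on chromosome 11 is 2765 bp wide and lies inside Sfi1, a centrosome protein gene. It had 408 and 336 tags before heat shock, 141 and 518 at 12 min, and 265 and 139 at 60 min. The region on chromosome 17, 1358 bp wide and inside the pseudogene Pisd-ps2, had 48 and 151, 19 and 158, and 38 and 65. Both were highest in the deepest library. At the other end, 2 members were 47 bp wide and 3 were 48 bp wide. Of these 5, 3 were on chromosome Y, 1 was at chr1:142652742-142652788 (5, 7, 6, 9, 9 and 10 tags) and 1 at chr17:56005864-56005911 inside Stap2, a signalling adaptor (9, 9, 7, 7, 10 and 7 tags).

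The summits of a member lay almost on top of each other. Within a time, the CS and MM summits were a median of 3, 4 and 3 bp apart in order of time. They were within 10 bp in 77.9%, 76.2% and 76.8% of members. In wild type shared regions the median distances were 31, 20 and 19 bp, and 25.6%, 29.7% and 28.9% lay within 10 bp. Summits of the same antibody before heat shock and later were a median of 3 to 4 bp apart in the knockout. In 499 of the 639 members all 6 summits fell within 50 bp. Overlap was part of the rule and narrow peaks leave little room, so these distances describe the members.

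**Figure D4:**
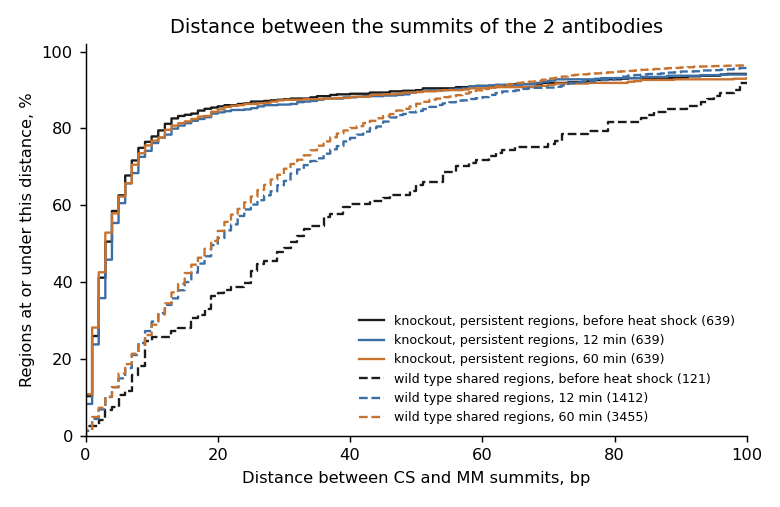
Share of regions whose CS and MM summits lie at or under a given distance in bp, for the 639 members (solid lines) and for wild type shared regions (dashed lines) at each time. About 76% to 78% of members are within 10 bp at each time, against 25.6% to 29.7% of wild type regions.

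Members were mostly away from gene ends. Gene positions cover the 622 members on chromosomes 1 to 19 and X. The summit was within 1 kb of a gene end (either end, since the gene table gives no strand) in 46 of them (7.40%, 95% exact binomial interval 5.47% to 9.74%), against a background of 9.41% over all knockout shared regions before heat shock. It was inside a gene in 277 (44.5%) and outside genes in 299 (48.1%). The regions that were not members had 42 of 313 at a gene end (13.4%, 9.84% to 17.7%). In wild type shared regions the shares were 34.7%, 26.3% and 19.5% in order of time. These intervals cover counting error only, and neighbouring members are not independent.

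**Figure D5:**
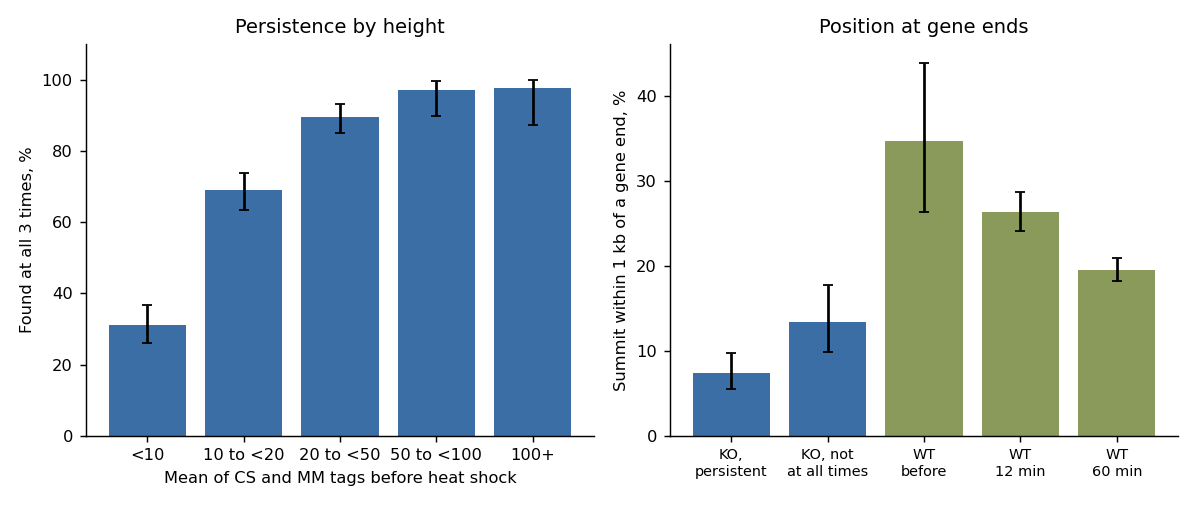
Left, share of knockout shared regions before heat shock that were found at all 3 times, by mean tags before heat shock. Right, share of regions with the summit within 1 kb of a gene end for knockout (KO) and wild type (WT) sets, both with 95% exact intervals: 7.40% of members and 34.7% of wild type regions before heat shock.

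Few protein-coding genes had a member at an end. They numbered 13 of 21631 (0.0601%), against 30 (0.139%) with any knockout shared region before heat shock. With a protein-coding gene counted first where a member was at several, 17 members were at protein-coding genes, 14 at long noncoding RNA genes, 9 at pseudogenes and 6 at other RNA genes. The 42 regions at a gene end that were not members gave a similar mix, with 16, 12, 6 and 8 in the same order. None of the listed genes of chaperones, heat shock factors, immediate early genes, the actin cytoskeleton or replication-dependent histones had a member at an end or inside. Of the 13 gene lists examined, 5 others, of 11 to 50 genes, had 1 gene each with a member at an end. The list of structural RNAs had 2 of the 12 genes found. The lists were chosen with earlier results of these data known, so these counts are descriptions only. With 0.0601% of protein-coding genes having a member, a count of 0 in lists this short says little.

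The member at an end of Lars2, the mitochondrial leucyl-tRNA synthetase, ranked best among the protein-coding genes. At chr9:123461737-123462233, it had 199 and 203 tags before heat shock, 70 and 101 at 12 min, and 125 and 89 at 60 min. All 4 later values were below both of the first. The member at Oasl1 and Gm13822, whose sequence is shown above, had 57 and 74, 30 and 87, and 61 and 44 tags, with no such order.

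The remaining list genes had shorter peaks. At Mt1, a metallothionein that binds metal ions, the member chr8:94180795-94180871 had 10 and 14 tags before heat shock, 6 and 10 at 12 min, and 16 and 9 at 60 min. At Mthfd1l, a mitochondrial enzyme of folate metabolism, the member chr10:4167877-4167931 had 13 and 13, 10 and 11, and 12 and 11. Neither overlapped a wild type peak. Their summits lay 499 and 822 bp from the gene end.

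The 7SL RNA genes gave the clearest pattern at RNA genes. 7SL is the RNA of the signal recognition particle, which guides new proteins to the endoplasmic reticulum. Rn7s1, at chr12:69159295-69159593, and Rn7s2, at chr12:69361183-69361481, each had a member at both ends. At Rn7s1 the member chr12:69159247-69159368 had 27 and 42 tags before heat shock, 24 and 25 at 12 min, and 39 and 30 at 60 min. Its other member, chr12:69159481-69159596, had 25 and 24, 18 and 24, and 35 and 25. At Rn7s2, chr12:69361179-69361310 had 19 and 31, 17 and 23, and 31 and 20, and chr12:69361411-69361486 had 25 and 33, 25 and 30, and 39 and 40. All 4 had more CS tags at 60 min than before heat shock although the library was shallower. The copies are near-identical genes, so reads could be placed at either. Rps29, a protein of the small ribosomal subunit, is counted among the genes with a member because its end lies 145 and 373 bp from the summits at Rn7s1.

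Apart from Gm32584, members at other protein-coding gene ends were at or below the members' median of 18 CS tags before heat shock. Gm32584, a predicted gene, had 3 members, with 7 to 47 CS tags before heat shock. Asmt, which makes melatonin, had 2, with 10 and 18 CS tags. Rnf41, a ubiquitin ligase, had 1 with 16 CS tags, Naaa, a lysosomal hydrolase, 1 with 9, and Gcgr, the glucagon receptor, 1 with 12. Mtmr7, Tmem267 and Crebzf completed the 13 genes, with 8, 8 and 9 CS tags.

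Members inside genes were spread over many genes, and a few genes held several. Tmem267, a membrane protein gene on chromosome 13, held 5 members within 5833 bp. Their CS and MM tags before heat shock were 82 and 96, 104 and 142, 103 and 122, 70 and 53, and 45 and 64. At 12 min they had 18 to 27 tags with CS and 66 to 190 with MM. The MM value was 2.64 to 8.67 times the CS value at 12 min, above the depth ratio of 3.01 in 4 of the 5. These ratios compare peaks of unlike width. At 12 min the CS peaks were 151 to 253 bp wide and the MM peaks 297 to 803 bp. They filled 4.68% to 7.58% of the limit with CS and 9.71% to 12.5% with MM. Gm20590, a pseudogene, 2700054A10Rik, a long noncoding RNA gene, and Myo3a, a myosin of the inner ear, held 4 each. Smo held 3.

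Members were grouped in places. With members joined when 10 kb or less apart, 137 of 639 (21.4%, 18.3% to 24.8%) were in 48 clusters and 502 stood alone. Over all knockout shared regions before heat shock, 26.6% were within 10 kb of another such region, and among the 331 that were not members 68 (20.5%) were within 10 kb of another of the 331. In 63 neighbouring pairs the summits were under 1 kb apart, with a median distance of 342 bp. A total of 29 members shared a region at a later time with another member, so their later values are not independent. For example, 3 neighbours at chr4:3089712-3090039, chr4:3090050-3090545 and chr4:3090549-3090834 have the same 286 tags with MM at 12 min.

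The largest cluster had 9 members over 11141 bp, at chrY:4150191-4161331. Its members had 6 to 29 CS tags and 7 to 28 MM tags before heat shock, and neighbouring summits lay 228 to 3555 bp apart. The second, chr11:3100361-3104759, had 6 members with 47 to 87 CS tags and 53 to 105 MM tags, and summits 612 to 1194 bp apart. Clusters of 5 followed at chrY:4073759-4084069 (9 to 14 CS tags), chr4:3089472-3091176 (40 to 103), the Tmem267 gene (45 to 104) and chromosome 18 (20 to 86). Those on chromosomes 4, 11 and 18 are close to 3 Mb, where the assembled sequence of mouse autosomes begins after the unassembled centromere. In all, 30 of the 622 placed members (4.82%) began within 300 kb after that point, on 10 chromosomes, against 16 of 313 (5.11%) of the regions that were not members. Nearness to the assembly start was thus about as frequent among members as among the others. Chromosome Y held 17 of the 639 members (2.66%), 16 of them before 5 Mb. It held 18 of the 331 regions that were not members (5.44%), which is a larger share.

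Overlap with wild type peaks was rare. Of the 639 members, 13 (2.03%, 1.09% to 3.45%) overlapped a CS or MM peak of wild type cells at any time, against a background of 2.27% over all knockout shared regions before heat shock. None overlapped a wild type shared region, where a count of 0 allows a share of up to 0.469% by the limit of 3 counts and 0.576% by the exact interval, while 2 of the 331 others did. For 622 members, the nearest wild type shared region was a median of 332192 bp away, with 28 members within 10 kb and 3 within 1 kb. The same distance was not taken for the other knockout regions, so it is not known to be particular to the members. By list, the overlaps were 1 with CS and 3 with MM before heat shock, 0 and 6 at 12 min, and 2 and 1 at 60 min. The wild type peaks were called against IgG and the knockout peaks without a control, so absence from the wild type lists does not show that tags were absent there.

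The wild type peak with the most tags at 12 min with MM lay on a member. It spanned chr1:24611282-24616333 over the Gm10925 region with 2701 tags, the first of its list, at a fold of 3.53 over background. It was the only one of the 13 overlaps to lie on one of the 10 best-ranked members. The next best-ranked, chr17:4626114-4626618 inside Gm34259, had 212 and 330 tags before heat shock, 132 and 182 at 12 min, and 299 and 165 at 60 min, and its wild type MM peak at 12 min had 20 tags.

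At Rn7s2 a single wild type MM peak at 12 min, with 23 tags, covered parts of both members. In Gm32584 a wild type CS peak of 65 tags at 60 min lay over 2 members, chr5:36660931-36661370 and chr5:36661462-36661581. The member chr11:34681769-34682020 inside Dock2, an activator of Rac in blood cells, had a wild type CS peak of 56 tags before heat shock. All of these wild type peaks were found by 1 antibody alone.

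The other overlaps were with low peaks before heat shock and taller ones later. Wild type MM peaks before heat shock had 8 tags at chr14:104336942-104337027 in D130079A08Rik and 6 tags each at chr9:19575429-19575579 and chr18:65427467-65427538. At 12 min they had 61 tags at chr10:96077558-96077771 and 76 at chr5:60042832-60043054, and at 60 min 53 tags at chr15:47539991-47540132. Of the 4 wild type peaks before heat shock on members, CS included, each had an FDR of 100% in the authors' list.

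SRF peaks fell on some of the tallest members. Of the 639 members, 3 overlapped an SRF peak (0.469%, 0.0969% to 1.37%), against a background of 0.309% over all knockout shared regions before heat shock. All were in the list before heat shock, where 4 of the 64 SRF peaks (6.25%, 1.73% to 15.2%) lay on members. These were the 4 highest by pileup, the number of tags over the summit, and the next highest had 13. At Gm33838 the pileup was 31, at chr2:98662161-98662999 a pair of peaks had 31 and 23, and at chr14:19415696-19419707 it was 19. Their folds over IgG were 3.11, 3.51, 6.47 and 4.95.

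All 3 of these members were among the 5 best-ranked and among the 11 filled to 50% or more in the CS list before heat shock. At 12 and 60 min none of the 68 and 18 SRF peaks lay on a member, where a count of 0 allows up to 4.41% and 16.7% by the limit of 3 counts, and 5.28% and 18.5% by the exact interval. SRF libraries were shallow, with 0.751, 1.55 and 0.949 M tags in order of time, and their tag length was 19 bp in the first and 31 bp in the others. Tag length and time cannot be told apart here.

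A stricter p-value was met by some members and not by others at similar heights. A p-value of 1e-10 or less in all 6 lists was met by 348 of 639 members (54.5%), and 6 met it in none. Before heat shock 493 members (77.2%) met it with both antibodies, against 70 of the 331 others (21.1%). The p-values and membership come from the same peak calls, so these shares describe the rule. Tall members could miss it: those 6 included a 671 bp region at chr6:47752569-47753239 with 56 and 76 tags before heat shock, 20 and 99 at 12 min, and 74 and 25 at 60 min. The Acacb region met it in all 6 lists with 42 to 47 tags. Those counts are above the upper quartile of the members in each list, which was 17 to 38 tags.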

How the data were processed

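ChIP-seq peak lists of 15 samples were analysed. The other 18, nascent RNA, IgG and input libraries, were not analysed here. Per the file headers, the authors used MACS 1.4.2 (p cutoff 1e-04, mm10) for the CS and MM lists, the knockout from single libraries with no control, the wild type from merged replicates against IgG, and SRF peaks with MACS2 2.0.9. No aligner is given in the sources used here. The deposited values are, per the file headers, the tag count, the score (a multiple of -log10 p), the fold enrichment (a ratio) and the FDR in percent of each peak, and for SRF the pileup signal, the -log10 p-value and q-value and the fold. Ranks are by tags.

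Peaks sharing at least 1 bp were joined and placed on GRCm38.p6 genes with Python 3.11.15 (pandas 2.3.3, numpy 2.4.6, scipy 1.17.1), tested on simulated intervals. A region's summit is midway between the summits of its tallest CS peak and its tallest MM peak. Shares carry 95% exact (Clopper-Pearson) intervals. Depth was 5.18 to 15.6 M tags (M for mega) in the knockout, and 14.0 to 26.3 in the wild type CS and MM libraries. Members named were the 12 best-ranked, those at coding gene ends, the 5 widest and narrowest, the largest clusters, those on wild type or SRF peaks and those at the rule's edge; others were picked after their values were seen. The members and gene lists were chosen with earlier results of these data known. Alternatives were the overlap required, 1 antibody, a stricter p-value, other distances and a list left out.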

Additional observations from a re-analysis of the deposited data

How the results depend on the processing

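The number of persistent regions was 356 when at least 50% of both intervals had to overlap and 349 with peaks of p 1e-10 or less. It stayed between 598 and 815 with CS or MM alone, with summits within 100 bp, on chromosomes 1 to 19 and X alone, or without the 12 min CS list, an alternative chosen after seeing the data. The share at a gene end was 4.82% at 500 bp and 28.1% at 5 kb. The share in clusters was 18.2% at 1 kb, 26.1% at 100 kb and 13.8% with the stricter p. Overlap with wild type peaks fell from 2.03% to 0% for shared regions and to 0.156% (1 member) for wild type peaks of p 1e-10 or less. The median width was 108 bp for the CS peak alone and 103 bp for the MM peak alone. Of the listed genes, 4 instead of 7 had a member at 500 bp. Of 31 alternatives, 19 left the value within 1.5 times (counts) or within the 95% interval of the main value, and 12 did not; the cause was not tested beyond what each definition sets. SRF overlap kept 3 members under every alternative run. No paired analysis was possible because each genotype, time and antibody had 1 list and the labels number no replicates. The lowest members had 4 to 6 tags in a list, and how depth bears on them was not tested.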
